A study of Mus musculus with 2 samples.

Results

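Meis1, Meis2, Meis3, Pbx2 and Pbx3 are TALE homeobox genes, 5 of the 32285 genes counted in single-cell libraries of enriched mouse blood. They were taken by gene symbol, and their levels were read in barcodes chosen by other genes. The blood came from wild-type mice after burn/tenotomy, a skin burn combined with cutting of a tendon, a model of heterotopic ossification (bone growth in soft tissue). Blood was sorted with the iChip, a microfluidic chip that removes most red cells and so enriches scarce cells, before 10x Chromium barcoding. The submitters call the recovered cells cMPCs and blood cells. Both libraries, replicate 1 and replicate 2, carry the same genotype and treatment and form 1 group. No uninjured blood was analysed here, so the values below compare classes of barcodes and say nothing of the injury.

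TALE proteins are transcription factors with a lengthened loop in their DNA-binding homeodomain. Meis and Pbx proteins bind each other and bind DNA together with Hox proteins, whose choice of sites they sharpen. They pattern limbs, organs and mesenchyme in the embryo. In blood, Meis1 is known from haematopoietic stem cells and megakaryocytes, where it falls as cells mature.

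Replicate 1 held 1008 barcodes with 3967318 unique molecular identifiers (UMIs, each standing for 1 captured RNA molecule), and replicate 2 held 849 barcodes with 3329292 UMIs. The libraries shared 0 barcodes. In 768 barcodes of both libraries more than 20% of the UMIs were mitochondrial, and these were kept. Mesothelial-collagen barcodes held at least 2 of Wt1, Muc16, Gpm6a, Col3a1 and Dcn, genes of mesothelium or of connective tissue matrix, and numbered 32 in replicate 1 and 23 in replicate 2. Ptprc barcodes, with the pan-leukocyte gene Ptprc, numbered 85 and 12. Platelet-gene barcodes, with Ppbp or Pf4, numbered 39 and 42. Of the rest, 469 and 371 took at least 50% of their UMIs from haemoglobin genes, and 386 and 401 met none of these rules. In replicate 1, 2 barcodes met the mesothelial-collagen and Ptprc rules and 1 met the Ptprc and platelet-gene rules, and each was counted in both classes.

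The names of the classes are those of their rules. All 12 genes of a mesothelial list were detected in the mesothelial-collagen barcodes, at a summed 5348 and 7516 UMIs per 1e6 UMIs (CPM), against 18.9 and 195 CPM in Ptprc barcodes. The list holds Wt1, Muc16 and Gpm6a, which chose the class, and the 9 other genes summed to 2431 and 3847 CPM, against 9.44 and 156 CPM. Of 12 mesenchymal genes, 10 were detected in the mesothelial-collagen barcodes, with Lum and Thy1 at 0. They summed to 2869 and 5100 CPM, against 368 and 0 CPM in Ptprc barcodes, and include Col3a1 and Dcn, which also chose the class. Col3a1 stood at 868 and 2061 CPM and Dcn at 1134 and 1164 CPM, most of the mesothelial-collagen sum. In Ptprc barcodes of replicate 1 they stood at 14.2 and 23.6 CPM, so other genes gave most of the 368 CPM. The contrast of this list thus rests largely on the class rule. A list of 12 leukocyte genes summed to 296 and 24.2 CPM in mesothelial-collagen barcodes, with Laptm5, Cd79a and Cd3e at 0, against 22086 and 11863 CPM in Ptprc barcodes. Without Ptprc itself, the leukocyte list stood at 276 and 24.2 CPM, against 19819 and 10458 CPM. Of 7 haematopoietic progenitor genes, Cd34 and Hlf gave 84 UMIs in the mesothelial-collagen barcodes, and Kit, Gata2, Mecom, Flt3 and Erg were at 0. Of 8 endothelial genes, 2 were detected there with 10 UMIs in all, and Cdh5, Egfl7, Flt1, Emcn, Tek and Eng were at 0.

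The Meis and Pbx genes had 342 UMIs in all, 200 in replicate 1 and 142 in replicate 2. Meis1 gave 179 of them, Meis2 gave 117, Pbx3 gave 28, Pbx2 gave 15 and Meis3 gave 3. The classes were part of how these genes were chosen, so their levels are a description with no test. Intervals are exact 95% intervals (Poisson for levels, Clopper-Pearson for shares) and cover counting error only.

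Meis1 was found mainly in the mesothelial-collagen barcodes. They held 94 UMIs in replicate 1 (896 CPM, interval 724 to 1097) and 78 in replicate 2 (630.4 CPM, 498 to 787), or 94.0% and 98.7% of all its UMIs. Its mean there was 763 ± 188 CPM (SD, n = 2). Ptprc barcodes held 5 Meis1 UMIs in replicate 1 (23.6 CPM) and 0 in replicate 2, where a count of 0 allows up to 144 CPM. Platelet-gene barcodes held 1 UMI in replicate 1 and 0 in replicate 2. That 1 UMI lay in the barcode that also met the Ptprc rule, so it is among the 5 Ptprc UMIs. Haemoglobin barcodes held 0 in both libraries, and the remaining barcodes held 1 in each. Levels were also taken on a reduced total, without UMIs of haemoglobin, mitochondria and Gm42418, a locus overlapping ribosomal RNA. On the reduced total Meis1 stood at 1305 and 828 CPM in mesothelial-collagen barcodes. It stood at 69.4 and 0 CPM in platelet-gene barcodes and at 30.6 and 22.6 CPM in the remaining barcodes. Both libraries had the mesothelial-collagen value far above the other classes, and the intervals of Ptprc, platelet-gene and remaining barcodes overlapped. Over both libraries, Meis1 was 35.7 times as high in mesothelial-collagen as in Ptprc barcodes (counting interval 15.0 to 111).

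Meis2, which is needed for neural crest and heart development in mice, was at 0 in Ptprc and platelet-gene barcodes. Mesothelial-collagen barcodes held 62 UMIs in replicate 1 (591 CPM, interval 453 to 758) and 45 in replicate 2 (364 CPM, 265 to 487), a mean of 477 ± 161 CPM (SD, n = 2). The 0 of 97 Ptprc barcodes allows a share of up to 3.73%, and a level of up to 15.5 CPM over both libraries. A floor of 3 UMIs in Ptprc barcodes over both libraries is 12.6 CPM. The Meis2 level of mesothelial-collagen barcodes was 37.0 times that floor. Within libraries it was 41.7 times the floor in replicate 1 and 3.11 times in replicate 2, which had 12 Ptprc barcodes. These ratios leave out the counting error of the mesothelial-collagen level, so they are not lower bounds. Haemoglobin barcodes held 0 and 2 Meis2 UMIs, and the remaining barcodes 4 and 4. Those remaining barcodes stood at 11.4 and 10.4 CPM of all UMIs, and at 122 and 90.3 CPM on the reduced total. Mesothelial-collagen barcodes stood at 861 and 478 CPM on the reduced total.

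Meis3 was hardly detected. Its 3 UMIs lay in 3 barcodes, a mesothelial-collagen barcode and a remaining barcode of replicate 1 and a haemoglobin barcode of replicate 2. At this depth no class could be set apart for it.

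Pbx3, a partner of Meis and Hox proteins known from leukaemia, was found in both mesothelial-collagen and Ptprc barcodes. Mesothelial-collagen barcodes held 10 UMIs in replicate 1 (95.3 CPM, interval 45.7 to 175) and 2 in replicate 2 (16.2 CPM, 1.96 to 58.4). Ptprc barcodes held 10 in replicate 1 (47.2 CPM, 22.6 to 86.8) and 3 in replicate 2 (117 CPM, 24.1 to 342). The order of the classes was opposite in the 2 libraries. Over both, the ratio of mesothelial-collagen to Ptprc levels was 0.958, with a counting interval of 0.400 to 2.28, too wide to call the levels alike. The 13 Ptprc UMIs came from 3 barcodes, while the 12 mesothelial-collagen UMIs came from 6. Platelet-gene barcodes held 5 Pbx3 UMIs in replicate 1, all in 1 barcode that also carried Ptprc, and 0 in replicate 2. This barcode, with 3 Pf4 and 0 Ppbp UMIs, also held the platelet-gene Meis1 UMI. On the reduced total it put the platelet-gene class at 347 CPM in replicate 1. Mesothelial-collagen barcodes stood at 139 CPM and Ptprc barcodes at 66.5 CPM there.

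The 3 Ptprc barcodes with Pbx3 were examined after their values had been seen. In replicate 1, Fn1, the fibronectin gene, was among the leading genes by fold in both, with 16 and 21 UMIs. Prg4 had 12 UMIs in one of them, and Vsig4 and Adgre1, genes of tissue macrophages, had 7 UMIs each in the other. The barcode with Adgre1 is the one that also met the platelet-gene rule. Of the 97 Ptprc barcodes, Prg4 and Vsig4 were each detected in 2, both with Pbx3, while Fn1 was detected in 12, 2 of them with Pbx3, and Adgre1 in 6, 1 of them with Pbx3. These genes were picked because they led in the Pbx3 barcodes, so the overlap is set by that choice. The Pbx3 barcode of replicate 2 was led by other genes, among them Cd86 with 13 UMIs and Rel with 19 UMIs.

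Pbx2, which is broadly expressed in mouse tissues, gave 1 and 4 UMIs in mesothelial-collagen barcodes (9.53 and 32.3 CPM) and 4 and 0 in Ptprc barcodes (18.9 CPM in replicate 1). Their ratio over both libraries was 1.30, with a counting interval of 0.279 to 6.54, so neither class was detectably higher. Platelet-gene barcodes held 0 and 1 Pbx2 UMIs, and the remaining barcodes 4 and 1. On the reduced total Pbx2 stood at 13.9 and 42.5 CPM in mesothelial-collagen barcodes. It stood at 0 and 101 CPM in platelet-gene barcodes and at 122 and 22.6 CPM in the remaining barcodes. Pbx2 overlaps Gpsm3, a gene with 13 UMIs in all, on the same strand. How reads of the overlap were counted was not tested.

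**Figure D1:**
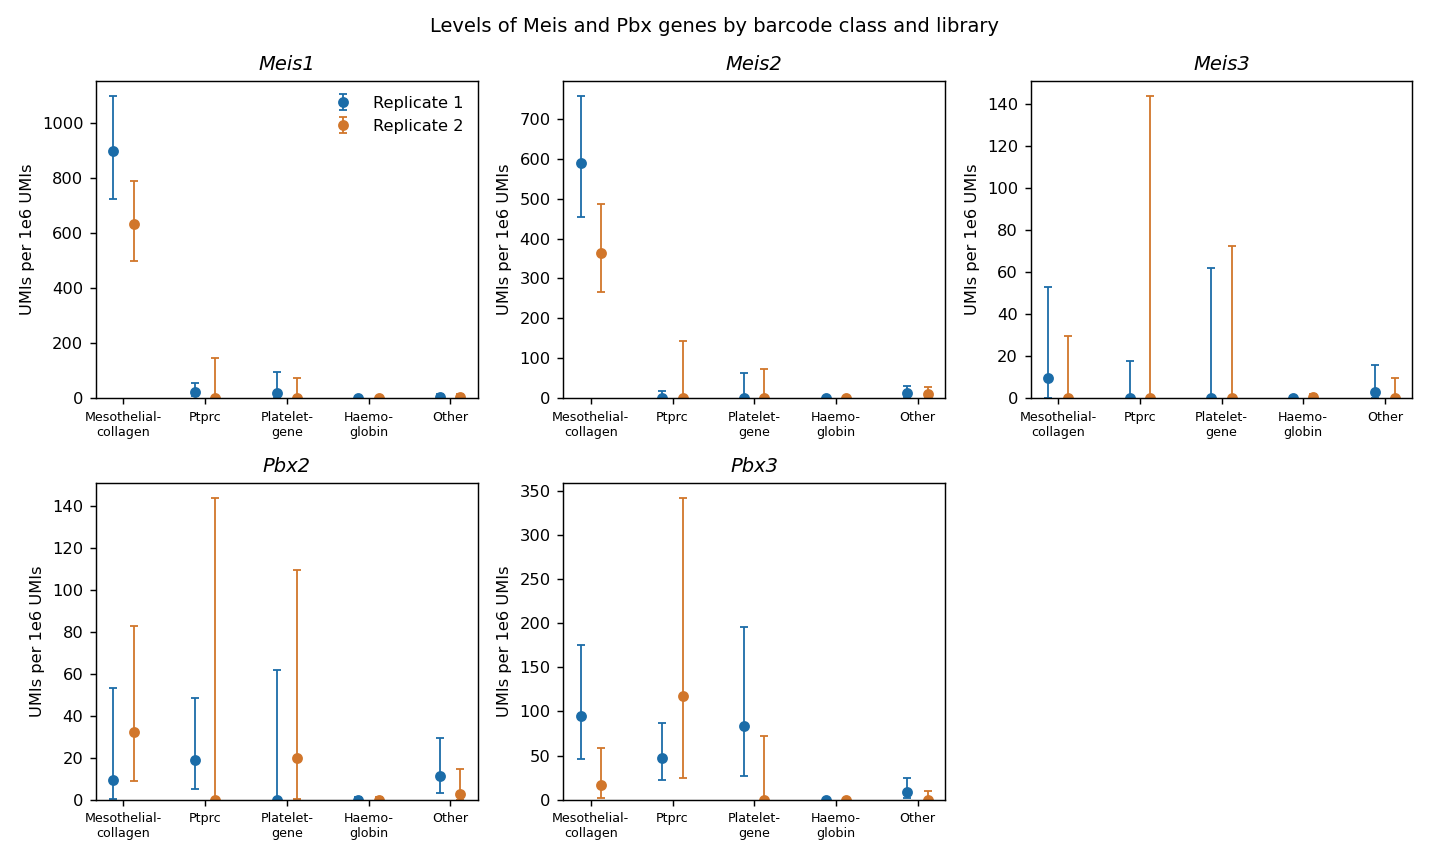
Levels of Meis1, Meis2, Meis3, Pbx2 and Pbx3 in UMIs per 1e6 UMIs (each panel has its own linear axis) by class of barcode, with points for each library and bars for exact Poisson 95% intervals. On this scale of all UMIs, Meis1 and Meis2 stand at 364 to 896 CPM in mesothelial-collagen barcodes and at or under 23.6 CPM elsewhere. Without haemoglobin, mitochondrial and Gm42418 UMIs, Meis2 in the remaining barcodes is at 122 and 90.3 CPM. The intervals of Pbx2 and Pbx3 overlap between mesothelial-collagen and Ptprc barcodes.

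The genes differ widely in length, which bears on any comparison between them. In mm10, Meis1 lies on chromosome 11 from 18879817 to 19018985, Meis2 on chromosome 2 from 115863064 to 116065839 and Pbx3 on chromosome 2 from 34171457 to 34373142, all on the minus strand. Meis3 lies on chromosome 7 from 16175090 to 16186504 and Pbx2 on chromosome 17 from 34591266 to 34597400, both on the plus strand. Per kilobase of gene, the mesothelial-collagen level was 6.44 and 4.53 CPM for Meis1, 2.91 and 1.79 CPM for Meis2, 0.835 and 0 CPM for Meis3, 1.55 and 5.27 CPM for Pbx2, and 0.473 and 0.0801 CPM for Pbx3. Per kilobase of exon it was 85.1 and 59.9 CPM for Meis1, 49.1 and 30.2 CPM for Meis2, 2.62 and 8.88 CPM for Pbx2, and 15.6 and 2.65 CPM for Pbx3. Meis1 stood above Meis2 on both scales in both libraries. The place of Pbx2 depended on the scale, since per kilobase of gene it stood above Meis1 in replicate 2, on 4 UMIs.

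A UMI of any of the 5 genes was found in 24 of 32 mesothelial-collagen barcodes in replicate 1 (75.0%, interval 56.6 to 88.5) and in 17 of 23 in replicate 2 (73.9%, 51.6 to 89.8). The share was 9.41% and 8.33% in Ptprc barcodes and 2.56% and 2.38% in platelet-gene barcodes. Of the 61 barcodes with Ppbp, 0 held any of the 5 genes, and of the 39 with Pf4, 2 did. Haemoglobin barcodes, which should lack these RNAs, had 0% in replicate 1 (0 of 469 allows up to 0.783%) and 0.809% in replicate 2. Their median depth was 5972 and 6048 UMIs, against 2204 and 4592 in mesothelial-collagen barcodes, 1702 and 1604 in Ptprc barcodes and 1024 and 788 in platelet-gene barcodes. With every barcode thinned to 500 UMIs, which no barcode fell below, the mean share of the 2 libraries was 36.8% in mesothelial-collagen barcodes, 2.92% in Ptprc barcodes and 0.969% in platelet-gene barcodes. The order of the classes was the same at equal total UMIs. Depth without haemoglobin, mitochondrial and Gm42418 UMIs still differed. Its median over both libraries was 1504 UMIs in mesothelial-collagen barcodes, 1093 in Ptprc barcodes, 354.5 in haemoglobin barcodes and 139 in platelet-gene barcodes. Haemoglobin barcodes, the deepest by all UMIs, were thus shallower than mesothelial-collagen barcodes on this count. The part of this depth was not tested. Among the remaining barcodes, 17 carried a member, 15 of them with 1 UMI only.

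**Figure D2:**
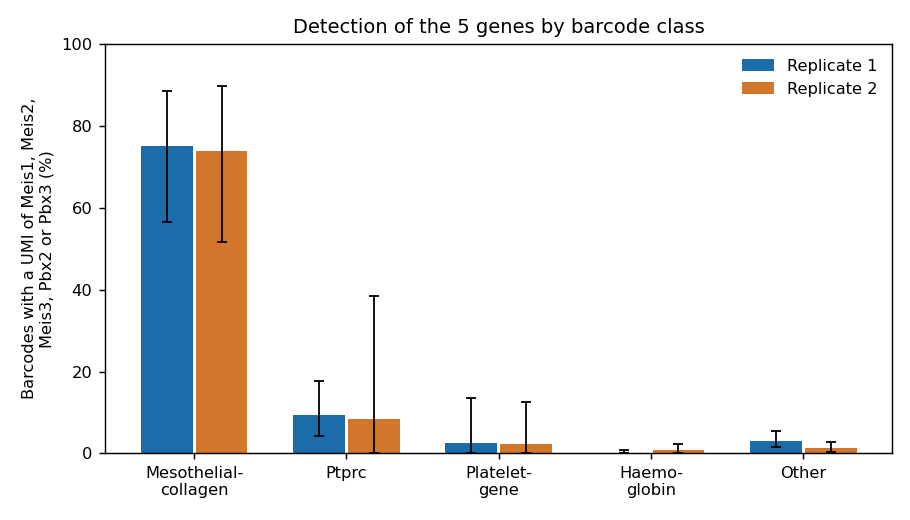
Share of barcodes (%) with a UMI of Meis1, Meis2, Meis3, Pbx2 or Pbx3, by class and library, with exact Clopper-Pearson 95% intervals. Mesothelial-collagen barcodes stand at 75.0% and 73.9%, and every other class is under 10% in both libraries.

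Meis1 and Meis2 often shared a barcode. Both were found in 12 of 32 mesothelial-collagen barcodes in replicate 1 and 10 of 23 in replicate 2. Meis1 alone was found in 4 and 2, Meis2 alone in 7 and 5, and neither in 9 and 6. The barcodes with both had a median of 4695 and 6785 UMIs, and those with neither 1551 and 1247, so detection moved with depth, whose part in the sharing was not tested. Pbx2 or Pbx3 was found in 6 and 5 barcodes, of which 5 and 5 also held Meis1 or Meis2. Pbx2 and Pbx3 were found together in 0.

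The amount of Meis1 was uneven between barcodes. A single barcode of replicate 1, with 11842 UMIs, held 39 of the 94 Meis1 UMIs (41.5%), and the barcode with most in replicate 2 held 17 of 78. Without the barcode with 39, Meis1 stood at 591 CPM in replicate 1 and Meis2 at 623 CPM. Meis1 exceeded Meis2 in 10 barcodes of replicate 1 and 9 of replicate 2, and Meis2 exceeded Meis1 in 11 and 7. In replicate 1 the higher summed level of Meis1 came from that barcode, while in replicate 2 the ratio of Meis1 to Meis2 UMIs was 1.73.

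**Figure D3:**
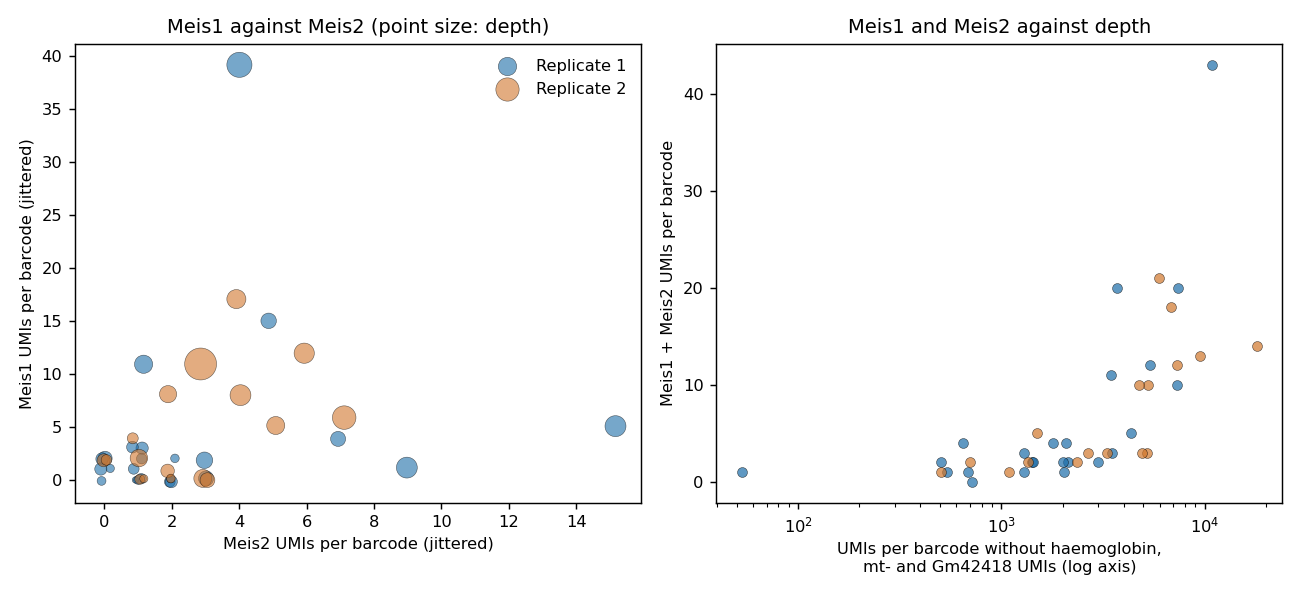
Left, Meis1 against Meis2 UMIs in each of the 41 mesothelial-collagen barcodes with a UMI of any of the 5 genes, shifted at random by under 0.2 to part equal points, with point area growing with depth. Right, the sum of both against UMIs per barcode without haemoglobin, mitochondrial and Gm42418 UMIs (log axis). One barcode of replicate 1 stands apart with 39 Meis1 UMIs.

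Within the mesothelial-collagen barcodes, those with at most 20% mitochondrial UMIs held most Meis1. They numbered 19 and 15 and held 89 and 74 Meis1 UMIs, against 5 and 4 in the 13 and 8 barcodes over 20%. Meis2 gave 55 and 39 UMIs, against 7 and 6. With haemoglobin, mitochondrial and Gm42418 UMIs (the last from a locus overlapping ribosomal RNA) left out of the total, Meis1 stood at 1461 and 857 CPM at low mitochondrial share, against 450.5 and 510.1 CPM at high share. Meis2 stood at 903 and 452 CPM, against 631 and 765 CPM, with opposite orders in the 2 libraries. Per 1e6 of all UMIs, Meis2 was higher at low mitochondrial share in both, at 683 and 380.2 CPM, against 288 and 284 CPM. Without the barcode with 39 Meis1 UMIs, Meis1 at low share in replicate 1 was 999.6 CPM on the reduced total.

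The any-gene share was lowest in barcodes with few class genes. Over both libraries it was 6.33% in 79 barcodes with 1 of the 5 class genes, just outside the rule, and 37.5% in 16 barcodes with 2, just inside it. It was 85.7% with 3, 87.5% with 4 and 93.8% with 5. In replicate 1 a member was found in 1 of 46, 5 of 11, 4 of 5, 9 of 10 and 6 of 6 barcodes with 1 to 5 class genes. In replicate 2 it was found in 4 of 33, 1 of 5, 2 of 2, 5 of 6 and 9 of 10, with no further growth beyond 3 genes. Median depth in these barcodes was 883, 1310, 3256, 2245 and 5851 UMIs, and its part was not tested. Where Wt1, Muc16 and Gpm6a had more UMIs than Col3a1 and Dcn, Meis1 stood at 1159 and 646 CPM and Meis2 at 751 and 323 CPM. Where the collagen-side genes had more, Meis1 stood at 768 and 623 CPM and Meis2 at 555 and 529.8 CPM. Without the barcode with 39 Meis1 UMIs, the value of 1159 CPM fell to 431 CPM, below the collagen side, so the order of Meis1 in replicate 1 rests on that barcode.

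**Figure D4:**
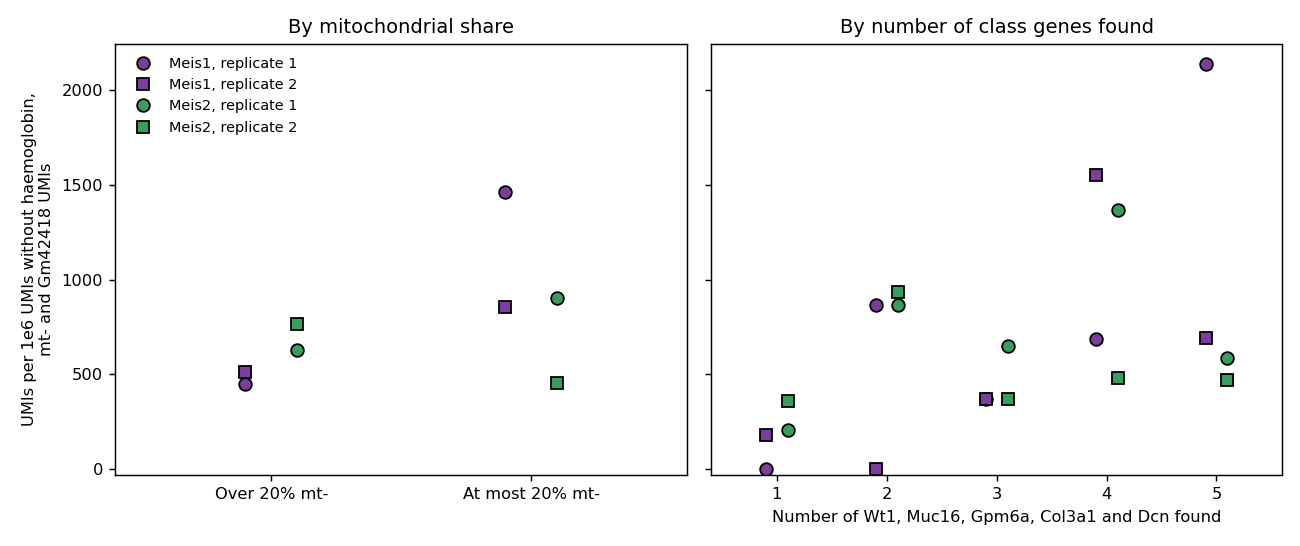
Meis1 and Meis2 in UMIs per 1e6 UMIs without haemoglobin, mitochondrial and Gm42418 UMIs, by library. Left, mesothelial-collagen barcodes over 20% and at most 20% mitochondrial UMIs; right, barcodes by how many of Wt1, Muc16, Gpm6a, Col3a1 and Dcn were found, where 1 lies outside the class. Meis1 is higher at low mitochondrial share in both libraries (1461 and 857 CPM) and Meis2 shows no order shared by them on this scale.

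Among 12022 genes detected in the mesothelial-collagen barcodes, Meis1 ranked 85 and Meis2 ranked 163 by UMIs. Among the 1901 of them at least 100 kb long, the ranks were 47 and 93. Pbx3 ranked 1061 among these long genes.

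The genes with class-by-library levels most like each member were sought among 4856 genes with at least 20 UMIs, over 10 sums that share libraries and depth. Barcodes meeting more than 1 class rule were left out of these sums, which put Meis1 at 977 CPM in the mesothelial-collagen barcodes of replicate 1. Pearson's r on log2(CPM + 10) is given as a description. Stk39, a kinase of ion transport, was most like Meis1 (r = 0.999), with 613 and 509 CPM in mesothelial-collagen barcodes and 15.1 and 0 CPM in Ptprc barcodes. Gxylt2, Pelp1, Abi2 and Fmn1 followed, with r from 0.996 to 0.998 on 20 to 45 UMIs each. Kank1, a regulator of the actin skeleton, was most like Meis2 (r = 0.9996), with 603 and 331 CPM against 0 and 0 CPM. It was followed by the desmosome gene Dsg2, the junction gene Mpdz, the integrin adaptor Fermt2, and Cdc42bpa, with r from 0.998 to 0.999 on 20 to 73 UMIs each. The genes named for Meis1 and Meis2 were at or under 15.1 CPM in all sums outside the mesothelial-collagen class. Their r therefore rests largely on the mesothelial-collagen sums. Meis1 and Meis2 had r = 0.967 with each other. For Pbx3, Ankrd10, Ppdpf, Brip1os, Hace1 and Synj2bp came first, with r from 0.975 to 0.979 on 22 to 33 UMIs each.

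UMI sums of the mesothelial-collagen, Ptprc and platelet-gene barcodes of each library were fitted across all genes with edgeR's quasi-likelihood test, leaving out barcodes of more than 1 class. Library was a block in the fit, which takes out the general difference between replicate 1 and replicate 2. The p-values thus rest on how far class differences varied from one library to the other. That variation may be technical, since no label tells whether separate mice were used. Of 1587 genes tested between mesothelial-collagen and Ptprc barcodes, 23.9% were higher and 10.2% lower at an adjusted p under 0.05. The tested genes include Meis1 and Meis2, and without these, 377 of 1585 were higher and 162 lower. Of the 5 genes, 2 passed the filter on low counts, Meis1 with a log2 fold change of 6.07 and Meis2 with a fitted 8.81 against sums of 0, which is no bound. Both passed through their mesothelial-collagen sums, 94 and 78 UMIs for Meis1 and 62 and 45 for Meis2. Their Ptprc sums were 4 and 0 UMIs for Meis1 and 0 and 0 for Meis2. No p is given for them, since this contrast chose them.

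Of 12 other TALE genes analysed here, 0 passed the filter. Without the filter, edgeR tested 5 of them between mesothelial-collagen and Ptprc barcodes and called 0, with 1 at an unadjusted p under 0.05. Of 14498 genes in that fit, 3.45% were called and 1447 had an unadjusted p under 0.05, so nothing is read from 0 of 5. Pknox1, whose product also pairs with Pbx proteins, gave 4 and 5 UMIs in mesothelial-collagen barcodes (38.1 and 40.4 CPM), against 3 and 0 in Ptprc barcodes. Pbx4 gave 1 and 3, against 2 and 0. Tgif1, a repressor that restrains TGF-beta signalling, ran the other way, with 0 and 0 UMIs in mesothelial-collagen barcodes, against 22 and 2 in Ptprc barcodes (104 and 78.0 CPM). Without the filter its edgeR adjusted p was 0.173. Irx3, Irx4, Irx5, Irx6 and Mkx had 0 UMIs in all barcodes.

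Hox genes, whose products bind DNA with Meis and Pbx, were detected mainly in the same class. The 38 genes analysed had 72 UMIs in all, 24 and 33 of them in mesothelial-collagen barcodes (229 and 267 CPM). Ptprc barcodes held 4 and 0, platelet-gene and haemoglobin barcodes 0, and the remaining barcodes 5 and 6 (14.3 and 15.7 CPM). The Hox sum was not taken on the reduced total. That total raised Meis2 in the remaining barcodes from 11.4 and 10.4 CPM to 122 and 90.3 CPM. Hoxb6 led with 5 and 5 UMIs, against 0 and 0 in Ptprc barcodes. Hoxa5 had 5 and 4, against 0 and 0, and Hoxb4 had 2 and 5, against 2 and 0. Over all barcodes Hoxb2 and Hoxb3 had 7 UMIs each, Hoxa3 and Hoxc4 had 6 each, and Hoxb5 and Hoxc6 tied at 3. Of the 7 Hoxb2 UMIs, 4 lay in 1 remaining barcode of replicate 1. All 57 UMIs in the mesothelial-collagen barcodes were from the 22 Hox genes of paralog groups 1 to 8, and none from the 16 of groups 9 to 13.

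None of the 38 Hox genes passed the filter. Without it, edgeR called 0 of the 14 Hox genes with a count, beside 3.45% of all genes in that fit. An unadjusted edgeR p under 0.05 was found for 2 of the 14, beside 1447 of all 14498 genes. Nothing is read from either count. DESeq2, run on filtered genes, tested none of them. A Hox UMI was found in 12 of 32 mesothelial-collagen barcodes in replicate 1 and 12 of 23 in replicate 2, and Meis1 or Meis2 was found in 11 and 10 of these. Median depth over both libraries was 5297 UMIs in barcodes with a Hox UMI and 2128 in those without, and its part in the sharing was not tested.

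**Figure D5:**
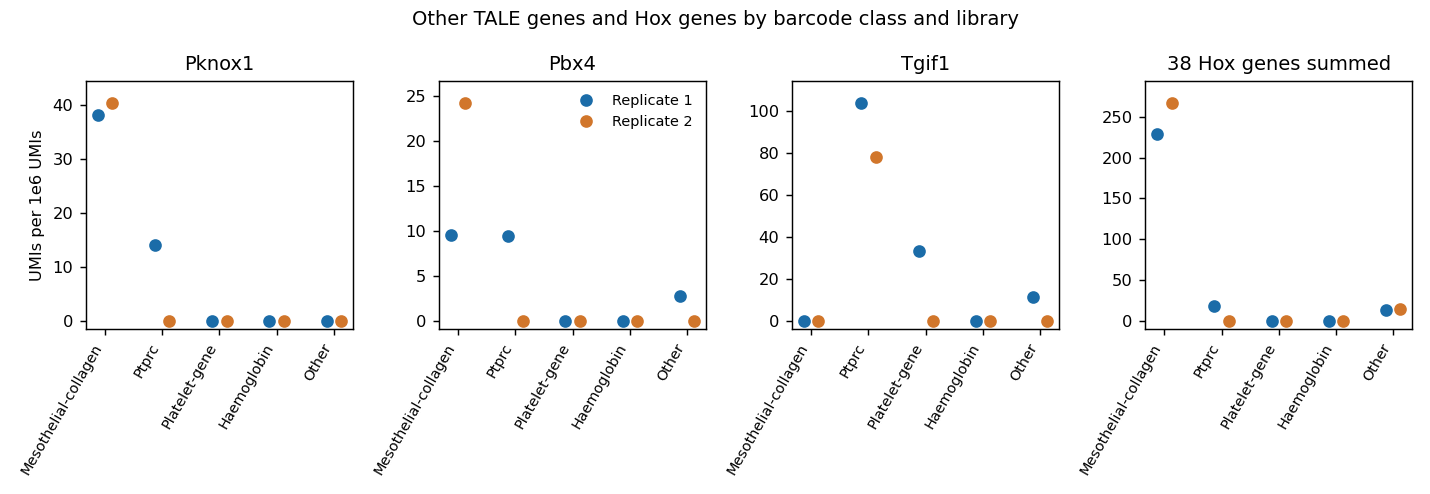
Levels of Pknox1, Pbx4, Tgif1 and the sum of 38 Hox genes in UMIs per 1e6 UMIs (own linear axis in each panel) by class of barcode, with a point for each library. The Hox sum stands at 229 and 267 CPM in mesothelial-collagen barcodes, against 18.9 and 0 CPM in Ptprc barcodes. It stands at 14.3 and 15.7 CPM in the remaining barcodes, per 1e6 of all UMIs. Tgif1 is at 0 in mesothelial-collagen barcodes.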

How the data were processed

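The deposited values were raw UMI counts per gene and barcode, whole numbers with no normalization. The submitters' processing notes list mm10, Cell Ranger 7.1.0 and Seurat 5, without their roles. Barcode calling, doublet removal and the counting of intronic reads are not given in the sources used here, and no doublet caller was run. The members and gene lists were chosen with earlier results of these data known. All barcodes were kept. Levels are class sums per 1e6 UMIs per library. The floor is 3 UMIs. Shares were thinned by hypergeometric expectation. Other TALE genes are named if they had at least 5 UMIs, and of the Hox genes the 8 with most, ties included. Some genes of the lists are not reported here. Coordinates and overlaps come from the mm10 gene annotation, matched by gene ID. Class sums were tested with edgeR 4.0.16 in R 4.3.3 (filterByExpr, TMM, library as a block, 2 residual degrees of freedom, Benjamini-Hochberg over all genes, threshold 0.05), with DESeq2 1.42.0 as an alternative. The block is the replicate number, since sums with 1 number come from 1 library. On simulated data for the mesothelial-collagen against Ptprc comparison (1595 genes, 200 changed 4-fold), 49% of the changed genes were found, with 2 false calls. Simulated classes differed only in the changed genes, with no library effect and a spread below the fitted dispersion of 0.176. These rates therefore come from a simpler setting than the data. Python 3.11.15, scipy 1.17.1, pandas 2.3.3 and matplotlib 3.10.9 were used.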

Additional observations from a re-analysis of the deposited data

How the results depend on the processing

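The any-gene share of mesothelial-collagen barcodes, 74.5% as the mean of both libraries, was 85.4% at most 20% mitochondrial UMIs, 77.0% in barcodes of 1 class only, 75.7% with at least 100 genes, 89.7% with 3 of the 5 class genes, 34.8% with 1, and 36.8% thinned to 500 UMIs. Its range was 73.9% to 75.0% with 1 library left out. The summed level, 1322 CPM, was 918 CPM with 1 class gene and 1851 CPM without haemoglobin, mitochondrial and Gm42418 UMIs, and 1043 to 1602 CPM with 1 library left out. An alternative chosen after seeing the data, leaving out the barcode with most Meis1, gave 74.1% and 1193 CPM. For Ptprc barcodes the share of 8.87% was 15.2% at most 20% mitochondrial UMIs, 11.1% with at least 100 genes, 15.1% with 2 Ptprc UMIs and 2.92% thinned (8.33% to 9.41% with 1 library left out). Their level of 103 CPM was 158 CPM, 161 CPM with 2 Ptprc UMIs and 180.0 CPM without the named UMIs (89.7 to 117 CPM). For platelet-gene barcodes the share of 2.47% was 6.25%, 1.19% in barcodes of 1 class only, 4.38% with 100 genes, 2.27% with 2 platelet UMIs and 0.969% thinned (2.38% to 2.56%). Their level of 60.2 CPM was 123 CPM, 9.84 CPM in barcodes of 1 class only and 259 CPM without the named UMIs (19.7 to 100.7 CPM). The mesothelial-collagen share and level stayed above those of the other classes in every alternative run on all of them.

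Between mesothelial-collagen and Ptprc barcodes 539 of 1585 genes outside the class rules and Meis1 and Meis2 were called, and 152 with DESeq2; without the replicate block 664 were called. Between platelet-gene and Ptprc barcodes 380 were called, 1000 with total UMIs alone, 141 with no filter and 632 without the replicate block. The higher share of these calls, 45.0%, was 34.4% with DESeq2-type size factors, 7.20% with total UMIs, 67.4% with no filter, 34.2% without the block and 20.1% at most 20% mitochondrial UMIs. Over all genes tested, the median log2 difference between mesothelial-collagen and Ptprc barcodes was 0.34, and 0.12 with total UMIs alone. The other TALE genes and the Hox genes had 0 calls with no filter, of 5 and 14 tested; under the other 5 alternatives none of them passed the filter, so these say nothing of them. The causes were not tested. With 1 library left out the edgeR fit had no residual degrees of freedom, so it gave no value. The 55 mesothelial-collagen barcodes and 342 UMIs limit Meis3, Pbx2 and Pbx3 most.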
